A study of Homo sapiens with 6 samples.

Results

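Nuclear-encoded subunits of the mitochondrial respiratory chain were followed through the first days of a chemical conversion of human fibroblasts. Members were chosen by gene name alone. Complex I took NDUFA, NDUFB, NDUFC, NDUFS and NDUFV names that end in a number, and complex II SDHA to SDHD. Complex III took names starting with UQCR, complex IV COX4 to COX8 names and complex V names starting with ATP5. Pseudogene names and hyphenated read-through names were left out. The rule found 86 of 60843 genes: 37 in complex I, 4 in complex II, 9 in complex III, 17 in complex IV and 19 in complex V. All 86 are annotated as protein-coding and they lie on 22 chromosomes. The respiratory chain sits in the inner mitochondrial membrane, where complexes I and II pass electrons from NADH and succinate to ubiquinone, complex III passes them to cytochrome c and complex IV to oxygen. Complexes I, III and IV pump protons, and complex V, the ATP synthase, uses the proton gradient to make ATP. Every complex but II combines subunits from nuclear genes with subunits made inside the mitochondrion from mitochondrial DNA. Neurons are known to rely on this pathway more than proliferating fibroblasts do.

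The study took BJ cells, a line of human skin fibroblasts of wild-type genotype, and profiled total RNA by sequencing at day 0, day 2 and day 5, with 2 libraries a day. Until day 0 cells grew on poly-D-lysine in DMEM with serum; until day 2 they were in an induction medium, and until day 5 in a maturation medium, both with 10 µM forskolin, a plant compound that activates adenylyl cyclase and raises cyclic AMP. No group without forskolin at days 2 and 5 was analysed here, and so compound, medium and time cannot be told apart. Whether same-day libraries stem from separate cultures is not stated, so the p-values measure a spread between libraries that may be technical only.

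The libraries held 17599504 to 27941919 expected counts, and 16327 genes entered the test. Levels are in CPM, the count relative to a library size scaled by trimmed means (TMM). Calls rest on edgeR's quasi-likelihood test with a Benjamini-Hochberg adjusted p under 0.05. The labels name the cells of days 2 and 5 induced neuron cells, yet of 12 neuron markers STMN2 and ELAVL4 were at 0 in all 6 libraries and 5 passed the count filter. The 12 summed to 243 and 252 CPM (day 0), 149 and 156 CPM (day 2) and 107 and 111 CPM (day 5). SNAP25, a synaptic fusion protein, was the one neuron marker called higher at day 5 against day 0, its log2 fold change being 1.64 ± 0.13 (SE, adjusted p = 6.9e-09). Of the 5 tested neuron markers 2 were called lower in that comparison and 2 were not called. Their median log2 fold change was -0.48 and the lowest -3.92. Of all tested genes 35.8% were called higher and 34.1% lower at day 5 against day 0. All 10 fibroblast markers passed the filter and summed to 18684 and 19031 CPM (day 0), 15967 and 16185 CPM (day 2) and 29216 and 29632 CPM (day 5), although 6 of the 10 were lower and 4 higher at day 5 against day 0 (median log2 fold change -0.25). Summed endothelial markers (4 genes) were at 64.8 and 61.2 CPM at day 5, against 4.97 and 6.77 CPM at day 0, nearly all of it from KDR (63.3 and 60.1 CPM at day 5, log2 fold change 3.88), while VWF, the other one tested, was not called (log2 fold change -0.97) and PECAM1 and CDH5 were at most 0.539 CPM. Summed blood markers (4 genes) were at 49.6 and 45.4 CPM at day 5, against 96.7 and 98.2 CPM at day 0, mostly from CD68. The 10 striated muscle markers summed to 2.40 to 4.69 CPM and 6 epithelial markers to 24.4 to 56.1 CPM. Their part in the results that follow was not tested, and in bulk samples fewer cells of a type and less RNA per cell cannot be told apart. Scaling by library totals in place of TMM moves the median log2 fold change of all tested genes to -0.18 at day 2 and -0.16 at day 5 against day 0, so directions that turn under it are named with each result.

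The subunits changed about as often as other genes but by less. Of the 86 members 80 passed the count filter. Day 2 compared with day 0 had 32 higher, 28 lower and 20 not called, where 66.8% of all tested genes were called (33.4% higher and 33.4% lower). Day 5 compared with day 0 had 31 higher and 31 lower, with 69.9% of all tested genes called (35.8% higher and 34.1% lower). Day 5 compared with day 2 had 28 higher and 32 lower, with 65.8% of all tested genes called (32.1% higher and 33.7% lower). Among the 9395 tested genes that average at least 10 CPM the shares called were 81.4% (41.8% higher, 39.6% lower), 81.7% (39.2% and 42.5%) and 79% (34.8% and 44.2%) in the same order of comparisons. The quartiles of the members' log2 fold changes between day 2 and day 0 were -0.21 and 0.24, and those of all tested genes -0.51 and 0.56. Beyond 1.5-fold in either direction lay 13.8% of the tested members between day 2 and day 0, 8.75% between day 5 and day 0, and 12.5% between day 5 and day 2, compared with 37.9%, 43.1% and 38.4% of those 9395 genes. Under library totals the split for day 2 and day 0 turned to 17 higher and 44 lower (68.3% of all tested genes called, 26% higher and 42.3% lower). For day 5 and day 0 it turned to 13 higher and 46 lower (69.3%, 27% and 42.3%), and for day 5 and day 2 it was 26 and 35 (66%, 31.2% and 34.8%).

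**Figure D1:**
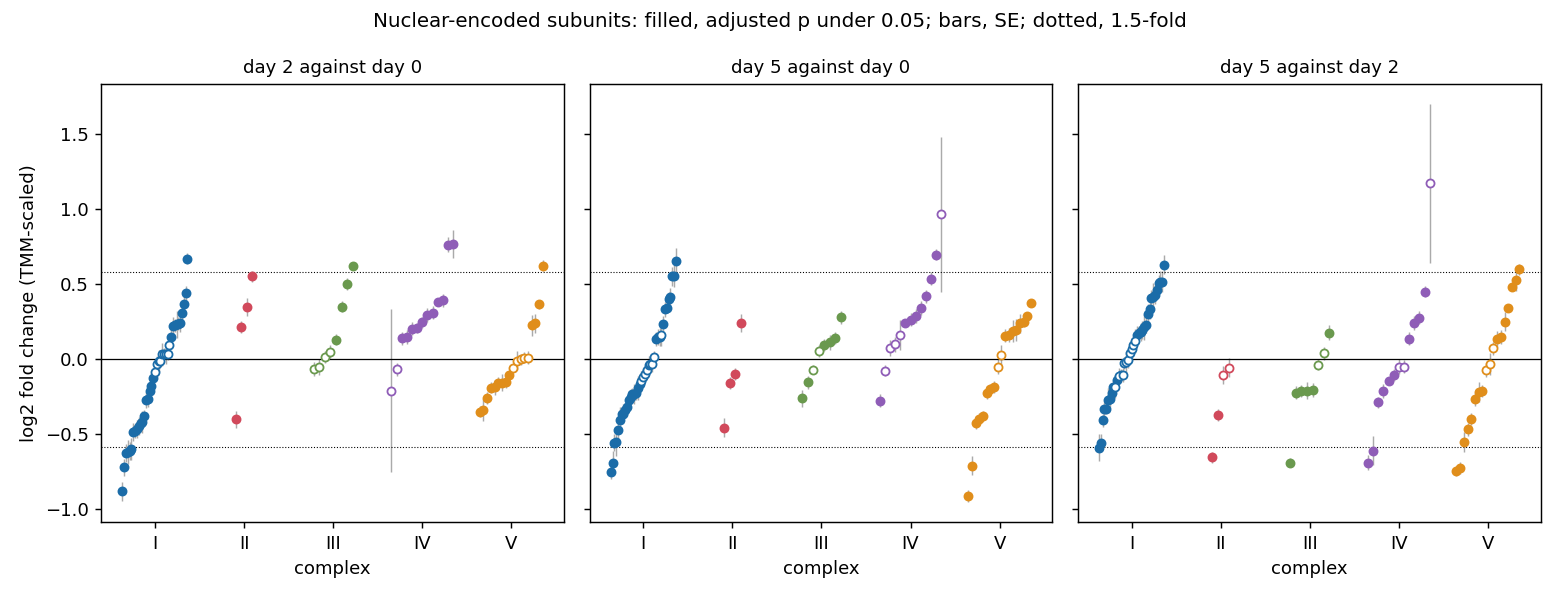
Log2 fold change of each of the 80 tested subunits (vertical axis, TMM-scaled) by complex (horizontal axis) in 3 comparisons; filled points passed an adjusted p of 0.05, bars are SE and dotted lines mark 1.5-fold. Most points lie inside the dotted lines, 11 of 13 complex IV points are above 0 at day 2 against day 0 (6 called higher and 1 lower under library totals), and the widest bar in complex IV is COX6B2, which is below 1.1 CPM in every library.

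By their means over 2 libraries the members spread over all 6 possible orders of the days, and in 58 of 80 the days also did not overlap. Separate days were common among all tested genes too. Between day 2 and day 0, 35 members lay above and 33 below without overlap, beside 41.3% and 41.4% of all tested genes. For day 5 and day 0 the counts were 36 and 37, beside 43.8% and 40.7%. For day 5 and day 2 they were 35 and 40, beside 41% and 41.4%. The share of all tested genes with 3 separate days was not counted. Nor were their shares with each order of the days, or with no call in any comparison. Counts of these kinds therefore describe the members alone. Highest at day 2 and lowest at day 0 were 17 of the 80 tested members, and the mirror pattern, highest at day 0 and lowest at day 2, was held by 13. Another 15 were highest at day 0 and lowest at day 5, 12 the reverse, 13 highest at day 2 and lowest at day 5, and 10 highest at day 5 and lowest at day 2. Of the 80, 5 were called in none of the 3 comparisons. When a change beyond 1.5-fold was itself tested (edgeR's glmTreat), 5 members passed at day 2 against day 0: COX7A1, COX7A2L and NDUFV2 higher, and NDUFA9 and NDUFS6 lower (28.2% of all tested genes passed, 15.3% higher and 12.9% lower). At day 5 against day 0 4 passed, COX7C higher and ATP5IF1, ATP5MD and NDUFC2 lower (35.3% of all tested genes), and at day 5 against day 2 ATP5F1E, ATP5IF1, COX7A2L, SDHA and UQCRC1 passed, all lower (29% of all tested genes).

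The promoters of 4 members whose levels are described in the following paragraphs are printed here because each holds a motif known from respiratory genes. They are the 250 bases before the RefSeq transcription start on GRCh38.p14, 5′ to 3′ on the gene's strand, with capitals for matches on either strand to CGCNTGCGC, the core of sites of nuclear respiratory factor 1 (NDUFA9, SDHA, UQCRC1), or to TGACGTCA, the cyclic AMP response element (ATP5MC1).
NDUFA9 (chr12:4648864-4649113, plus strand): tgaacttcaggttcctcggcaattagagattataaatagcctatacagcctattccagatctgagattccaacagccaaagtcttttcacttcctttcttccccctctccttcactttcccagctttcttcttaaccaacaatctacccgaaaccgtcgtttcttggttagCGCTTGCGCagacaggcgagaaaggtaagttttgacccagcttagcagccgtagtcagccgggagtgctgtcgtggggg
SDHA (chr5:218070-218319, plus strand): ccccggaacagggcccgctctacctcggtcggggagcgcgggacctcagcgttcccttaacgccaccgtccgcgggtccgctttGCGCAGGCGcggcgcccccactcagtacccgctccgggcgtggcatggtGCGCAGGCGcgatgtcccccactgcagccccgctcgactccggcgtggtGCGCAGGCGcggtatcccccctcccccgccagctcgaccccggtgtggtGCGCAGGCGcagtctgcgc
UQCRC1 (chr3:48609647-48609896, minus strand): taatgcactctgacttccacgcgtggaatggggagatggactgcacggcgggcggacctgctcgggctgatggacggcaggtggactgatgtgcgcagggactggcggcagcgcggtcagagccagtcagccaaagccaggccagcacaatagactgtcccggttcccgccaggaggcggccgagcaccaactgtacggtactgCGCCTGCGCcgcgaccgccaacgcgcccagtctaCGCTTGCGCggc
ATP5MC1 (chr17:48892537-48892786, plus strand): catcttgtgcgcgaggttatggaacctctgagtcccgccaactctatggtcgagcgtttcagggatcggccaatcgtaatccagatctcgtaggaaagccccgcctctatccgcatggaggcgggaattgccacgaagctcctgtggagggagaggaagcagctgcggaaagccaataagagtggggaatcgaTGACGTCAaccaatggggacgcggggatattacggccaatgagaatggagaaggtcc
SDHA carried 4 matches in its window, at positions -166, -117, -68 and -19 from the RefSeq transcription start, UQCRC1 carried 2 and the others 1 each. The gene coordinates given below are from GENCODE, whose gene starts can differ from RefSeq starts. By GENCODE the whole UQCRC1 window, with its 2 matches, lies inside the gene. The SDHA matches at -68 and -19 also lie inside their gene. The other SDHA matches and those of NDUFA9 and ATP5MC1 lie before the GENCODE start. Which start these cells use was not tested. NDUFV2 and ATP5MC2, whose levels are also described below, were searched as well and are not printed. NDUFV2 had no match in its window, and ATP5MC2 had 1 match, to CGCNTGCGC, in 1 of its 3 windows. By GENCODE the 3 ATP5MC2 windows lie inside that gene. RefSeq promoters were found for 70 of the 86 members. CGCNTGCGC was present before at least 1 start of 21 of them (30.0%, against 7.98% of all 27305 genes). TGACGTCA was present before 4, namely ATP5MC1, ATP5ME, NDUFA10 and NDUFB2 (5.71% against 2.03%). CCGGAAG, a core of ETS-family sites such as those bound by GABPA, was present before 18 (25.7% against 10.2%). The 27305 genes were all those with a RefSeq promoter, whether tested here or not, while 16327 genes entered the test. Shares among the tested genes alone were not counted. Matches to different motifs shared no base in any member's window, and a match describes the letters of a window only. Of the 20 tested members with CGCNTGCGC 8 were called higher and 6 lower at day 2, and of the 47 without it 16 and 17. At day 5 against day 0 the counts were 7 and 8 with it, and 16 and 20 without. Of the 4 with TGACGTCA 2 were higher and 2 lower at day 2, both higher calls (ATP5ME and NDUFA10) being lost under library totals. Of the 63 without TGACGTCA 22 were higher and 21 lower. Among all tested genes 33.4% were higher and 33.4% lower at day 2, and 35.8% and 34.1% at day 5.

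Complex I had more lower than higher subunits at both later days. Of its 37 subunits, all tested, 10 were higher and 18 lower at day 2 relative to day 0 (33.4% and 33.4% of all tested genes). The median log2 fold change was -0.087. Day 5 had 11 higher and 17 lower than day 0 (median -0.12), where 35.8% and 34.1% of all tested genes were called. It had 16 higher and 11 lower than day 2 (median 0.067), where 32.1% and 33.7% of all tested genes were called. Under library totals the day 2 counts relative to day 0 were 4 and 24 (26% and 42.3% of all tested genes). The day 5 counts relative to day 0 were then 7 and 25 (27% and 42.3% of all tested genes). The 11 NDUFS and NDUFV subunits, which include the iron-sulfur and flavin subunits of the peripheral arm, gave 4 higher and 6 lower at day 2 against day 0. The 26 NDUFA, NDUFB and NDUFC subunits, mostly accessory, gave 6 and 12. NDUFA9, an accessory subunit near the ubiquinone site (ENSG00000139180, chr12:4649095-4694317, plus strand), had 49.9 and 46.5 CPM (day 0), 25.1 and 27.1 CPM (day 2) and 37.6 and 37.4 CPM (day 5). It was lowest at day 2, highest at day 0, and the days did not overlap. Its log2 fold change was -0.88 ± 0.065 (SE, adjusted p = 2.2e-09) at day 2 against day 0, -0.36 ± 0.065 (SE, adjusted p = 1.0e-04) at day 5 against day 0, and 0.52 ± 0.071 (SE, adjusted p = 5.3e-06) at day 5 against day 2.

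NDUFS6, an accessory subunit that binds zinc, had 57.4 and 58.1 CPM (day 0), 34.7 and 35.4 CPM (day 2) and 39.8 and 38.8 CPM (day 5). Both later days were below day 0 without overlap, with log2 fold changes of -0.72 ± 0.054 (SE, adjusted p = 2.7e-09) at day 2 and -0.56 ± 0.056 (SE, adjusted p = 1.2e-07) at day 5. NDUFS3, NDUFS7 and NDUFS8, core subunits on the path of electrons to ubiquinone, fell together at day 2, by 0.63, 0.61 and 0.48 on the log2 scale against day 0. At day 5 against day 2 the same 3 genes were higher, with log2 fold changes of 0.46, 0.34 and 0.23 (adjusted p = 6.5e-06, 2.1e-04 and 8.8e-04). NDUFS1, the largest iron-sulfur subunit, was not called at either later day against day 0, with log2 fold changes of 0.039 at day 2 and 0.015 at day 5 that became -0.15 and -0.19 under library totals.

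NDUFV2, an iron-sulfur subunit of the NADH-oxidizing module (ENSG00000178127, chr18:9102630-9134345, plus strand), had 109 and 108 CPM (day 0), 175 and 171 CPM (day 2) and 139.8 and 136 CPM (day 5). It was the complex I subunit with the largest rise at day 2, and no library of the later days reached down to day 0. Its log2 fold change was 0.67 ± 0.035 (SE, adjusted p = 1.8e-11) at day 2 and 0.34 ± 0.037 (SE, adjusted p = 2.3e-07) at day 5, both against day 0. NDUFV1, which carries the flavin beside it, had a log2 fold change of -0.13 ± 0.051 (SE, adjusted p = 0.035) at day 2 against day 0, a call that was lost without day 0 replicate 2 (adjusted p = 0.32) or without either day 2 library (0.10 and 0.092). NDUFB4, a membrane-arm subunit, was the next largest rise, its log2 fold change being 0.44 ± 0.048 (SE, adjusted p = 3.4e-07) at day 2 and 0.33 ± 0.051 (SE, adjusted p = 1.7e-05) at day 5.

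At day 5 other complex I subunits had the largest changes. NDUFA5, an accessory subunit of the peripheral arm, had 22.2 and 19.8 CPM (day 0), 25.5 and 23.9 CPM (day 2) and 35.6 and 30.5 CPM (day 5). Its day 5 libraries were above all others, with a log2 fold change of 0.65 ± 0.09 (SE, adjusted p = 5.4e-06) against day 0, and NDUFB1, a small membrane-arm subunit, reached 0.56 ± 0.072 (SE, adjusted p = 2.7e-06). NDUFC2, which joins the membrane arm, had 102 and 104 CPM (day 0), 78.1 and 76.0 CPM (day 2) and 59.0 and 63.4 CPM (day 5). Each day was below the one before without overlap, with log2 fold changes relative to day 0 of -0.42 ± 0.044 (SE, adjusted p = 2.1e-07) at day 2 and -0.75 ± 0.048 (SE, adjusted p = 2.3e-10) at day 5. NDUFB3, another membrane-arm subunit, had a day 5 log2 fold change of -0.69 ± 0.078 (SE, adjusted p = 4.8e-07). Between day 2 and day 5 NDUFA8, an accessory subunit, was higher at day 5 by 0.63 on the log2 scale, while NDUFA7 and NDUFS4, a phosphorylatable subunit of the peripheral arm, fell by 0.59 and 0.56. NDUFA4 bears a complex I name but is now assigned to complex IV in mammals, and it was not called at either later day against day 0, with a log2 fold change of 0.036 at day 2 (-0.15 under library totals).

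**Figure D2:**
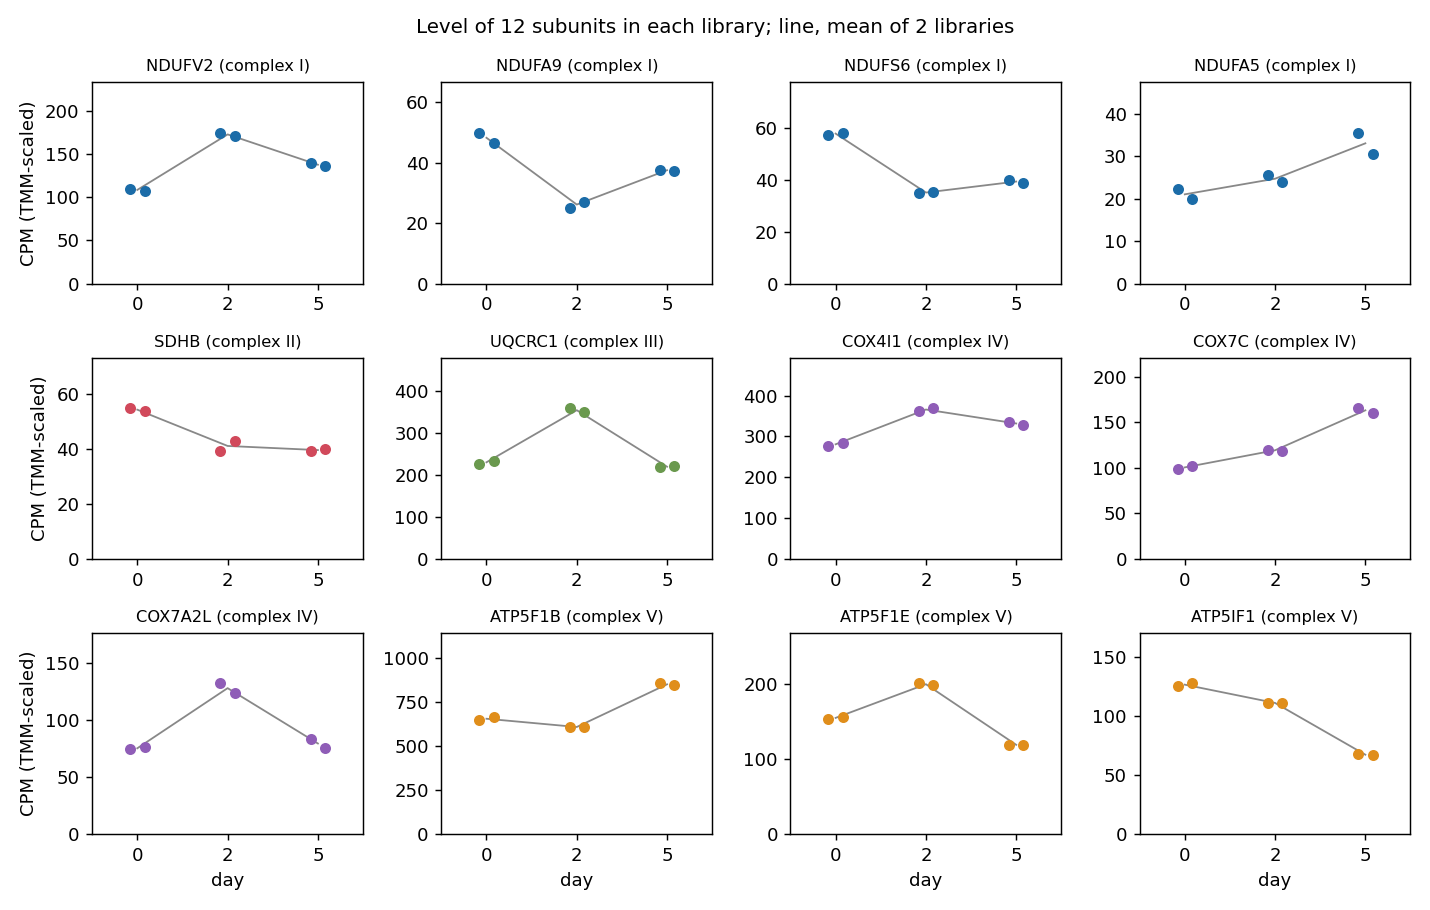
TMM-scaled CPM (vertical axes, starting at 0) of 12 subunits in each library at days 0, 2 and 5 (horizontal axis); lines join the means of 2 libraries and colours mark complexes. NDUFA9 and NDUFS6 are lowest at day 2, NDUFV2, UQCRC1, COX7A2L and ATP5F1E are highest at day 2, and ATP5IF1 is lowest at day 5.

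Complex II, succinate dehydrogenase, is the one complex made wholly from nuclear genes, and its 4 subunits did not move together. At day 2 against day 0 SDHA, SDHC and SDHD were higher and SDHB lower, and at day 5 against day 0 SDHD was higher and the other 3 lower, the SDHD call being lost under library totals (0.037). SDHB, the iron-sulfur subunit, had 54.9 and 53.7 CPM (day 0), 39.3 and 42.9 CPM (day 2) and 39.2 and 40.0 CPM (day 5). Both later days were below day 0, and its log2 fold change was -0.40 ± 0.057 (SE, adjusted p = 8.8e-06) at day 2 and -0.45 ± 0.061 (SE, adjusted p = 3.6e-06) at day 5. SDHA, the flavin-bearing catalytic subunit (ENSG00000073578, chr5:218241-256700, plus strand) whose promoter is printed above with 4 motif matches, had 133 and 141 CPM (day 0), 198 and 204 CPM (day 2) and 124 and 131 CPM (day 5). Day 2 stood above both other days, with a log2 fold change of 0.55 ± 0.037 (SE, adjusted p = 6.8e-10) against day 0 and -0.65 ± 0.039 (SE, adjusted p = 1.5e-10) at day 5 against day 2. The fall at day 5 against day 0, -0.10 ± 0.04 (SE, adjusted p = 0.037), was lost without day 0 replicate 2 (adjusted p = 0.24) or day 5 replicate 1 (0.20).

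SDHA is the member for which counting is least certain, since the pseudogenes SDHAP1, SDHAP2 and SDHAP3 are close copies and reads can be split among them. Their summed level was 48.0 and 46.6 CPM (day 0), 59.1 and 58.3 CPM (day 2) and 80.4 and 80.9 CPM (day 5), which was 28.6% to 36.2% of the SDHA count at days 0 and 2 and 64.7% and 61.7% at day 5. SDHA and its pseudogenes together had 181 and 187 CPM (day 0), 257 and 262 CPM (day 2) and 205 and 212 CPM (day 5). With the copies added, day 2 remained the highest day, but both day 5 libraries lay above both day 0 libraries rather than below them. SDHC and SDHD, the membrane anchors, were higher at day 2 by 0.21 and 0.35 on the log2 scale, and SDHC's call was lost under library totals (0.03).

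Complex III had 4 higher and 0 lower of 8 tested subunits at day 2 relative to day 0 (33.4% and 33.4% of all tested genes). Relative to day 2, 1 was higher and 5 lower at day 5 (32.1% and 33.7% of all tested genes). Relative to day 0, 4 were higher and 2 lower at day 5 (35.8% and 34.1% of all tested genes). Under library totals the counts relative to day 0 turned to 3 higher and 4 lower at day 2, and 0 and 5 at day 5. Its median log2 fold changes relative to day 0, 0.091 at day 2 and 0.076 at day 5, became -0.094 and -0.13 under library totals. UQCRC1, a core subunit of the matrix side (ENSG00000010256, chr3:48599002-48610976, minus strand), had 226 and 234 CPM (day 0), 359 and 349 CPM (day 2) and 218 and 220.3 CPM (day 5). Day 2 was above both other days without overlap. Its log2 fold change was 0.62 ± 0.028 (SE, adjusted p = 3.0e-12) at day 2 against day 0 and -0.69 ± 0.029 (SE, adjusted p = 1.1e-12) at day 5 against day 2. UQCRC2, the other core subunit, had a smaller rise of 0.35 ± 0.038 (SE, adjusted p = 3.1e-07) at day 2, and UQCRB, which sits at the ubiquinone pocket, had 99.3 and 95.5 CPM (day 0), 140.3 and 136 CPM (day 2) and 122 and 115 CPM (day 5). UQCRB was above day 0 at both later days without overlap, with log2 fold changes of 0.50 ± 0.04 (SE, adjusted p = 6.8e-09) at day 2 and 0.28 ± 0.043 (SE, adjusted p = 1.6e-05) at day 5, the day 5 call being lost under library totals (0.076). UQCRFS1, the Rieske iron-sulfur protein, was not called at day 2 (-0.066), and its call at day 5 against day 0 (0.11 ± 0.048 (SE, adjusted p = 0.046)) was lost without any 1 of the 6 libraries (adjusted p from 0.052 to 0.34) and turned to -0.093 under library totals. UQCR10 and UQCR11, small subunits, fell at day 5 against day 0 by 0.26 and 0.15, the second losing its call without day 0 replicate 2 (adjusted p = 0.10) or day 5 replicate 1 (0.051).

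Complex IV, cytochrome c oxidase, had 11 higher and 0 lower of 13 tested subunits at day 2 relative to day 0 (33.4% and 33.4% of all tested genes). The median log2 fold change was 0.25, where all tested genes had a median of 0.0030. Day 5 had 7 higher and 1 lower than day 0 (median 0.26), where 35.8% and 34.1% of all tested genes were called. It had 4 higher and 6 lower than day 2 (32.1% and 33.7% of all tested genes). Under library totals the counts relative to day 0 were 6 higher and 1 lower at day 2, and 4 higher and 3 lower at day 5. COX4I1, the regulatory subunit present in most tissues (ENSG00000131143, chr16:85798633-85807044, plus strand), had 276 and 285 CPM (day 0), 362 and 369 CPM (day 2) and 335 and 329 CPM (day 5). Both later days were above day 0 without overlap, by 0.38 ± 0.026 (SE, adjusted p = 9.3e-10) at day 2 and 0.24 ± 0.027 (SE, adjusted p = 5.0e-07) at day 5, although under library totals the day 5 value was 0.034 and not called. COX5A and COX5B bind the core of the enzyme. At day 5 against day 0 COX5B was higher by 0.42 ± 0.044 (SE, adjusted p = 1.7e-07), and COX5A was not called (0.10). Under library totals the COX5B value was 0.21 and still called (adjusted p = 3.0e-04). COX5B was also higher at day 5 against day 2, by 0.28. At day 2 against day 0 COX5A and COX5B had log2 fold changes of 0.15 and 0.14 that turned to -0.034 and -0.043 under library totals. The COX5A call was lost without day 0 replicate 2 (adjusted p = 0.14) or day 2 replicate 1 (0.088), and the COX5B call without day 0 replicate 1 (0.081) or day 2 replicate 2 (0.12).

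COX7C and COX7B, small membrane subunits, kept rising to day 5. COX7C had 99.0 and 102 CPM (day 0), 119.8 and 119 CPM (day 2) and 166 and 161 CPM (day 5), each day above the one before, with log2 fold changes of 0.25 ± 0.037 (SE, adjusted p = 1.7e-05) at day 2 and 0.70 ± 0.037 (SE, adjusted p = 2.2e-11) at day 5 against day 0; the day 2 value was 0.062 and not called under library totals. COX7B had log2 fold changes of 0.30 ± 0.045 (SE, adjusted p = 1.7e-05) and 0.54 ± 0.046 (SE, adjusted p = 1.3e-08) in those comparisons. COX8A, another small membrane subunit, was the 1 complex IV subunit called lower at day 5 against day 0, at -0.28 ± 0.045 (SE, adjusted p = 3.5e-05).

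COX7A1 and COX7A2L had the largest rises of the 80 tested members at day 2. COX7A2L, which is known for joining complex III and complex IV in supercomplexes rather than for a place in the single enzyme (ENSG00000115944, chr2:42333546-42425088, minus strand), had 74.3 and 75.9 CPM (day 0), 132 and 124 CPM (day 2) and 83.6 and 75.0 CPM (day 5). Day 2 was above the other days, while day 5 overlapped day 0. Its log2 fold change was 0.76 ± 0.049 (SE, adjusted p = 3.6e-10) at day 2 against day 0 and -0.69 ± 0.052 (SE, adjusted p = 2.8e-09) at day 5 against day 2. COX7A1, the isoform typical of heart and skeletal muscle, had 13.8 and 13.0 CPM (day 0), 23.8 and 21.9 CPM (day 2) and 14.9 and 15.1 CPM (day 5). It too stood highest at day 2, at 0.77 ± 0.091 (SE, adjusted p = 1.0e-06) against day 0, with its share of the COX7A pair also higher: it made up 18.4% and 17.7% of the summed COX7A1 and COX7A2 counts at day 2, against 14.3% and 13.4% at day 0. COX7A2, the isoform of most tissues, rose less, by 0.31 at day 2.

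Other tissue-restricted isoforms were near or at 0. COX4I2 (lung), COX6A2 (heart and muscle) and COX7B2 had no count in any of the 6 libraries, which for COX4I2 allows up to 0.0302% to 0.0537% of the summed COX4I1 and COX4I2 counts per library (3 counts, counting error only). COX8C, known from testis, had 3 counts in 1 day 2 library and 1 in 1 day 5 library. ATP5MGL had 6 in 1 day 0 library and 0 elsewhere. COX6B2, a testis isoform, made up 0.351% to 0.889% of the COX6B1 and COX6B2 counts and was not called in any comparison. UQCRHL, a near copy of UQCRH, had 0 counts at day 0 and 0.250 to 0.491 CPM at days 2 and 5 and failed the count filter, and reads may be split between the pair.

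Complex V, the ATP synthase, had 4 higher and 9 lower of 18 tested subunits at day 2 relative to day 0 (33.4% and 33.4% of all tested genes). At day 5 it had 8 higher and 8 lower relative to day 0 (35.8% and 34.1% of all tested genes). Relative to day 2, 7 were higher and 8 lower at day 5 (32.1% and 33.7% of all tested genes). Under library totals the counts relative to day 0 were 2 higher and 14 lower at day 2, and 2 and 10 at day 5. In the catalytic F1 head, ATP5F1B, the catalytic beta subunit, had 648 and 665 CPM (day 0), 608 and 611 CPM (day 2) and 858 and 847 CPM (day 5). Day 5 was the highest day and day 2 the lowest, with a log2 fold change of 0.38 ± 0.021 (SE, adjusted p = 3.8e-11) at day 5 against day 0. The alpha subunit ATP5F1A moved alike at day 5, by 0.29 ± 0.025 (SE, adjusted p = 1.6e-08), and was just outside the call at day 2 against day 0 (-0.056 ± 0.025 (SE, adjusted p = 0.055)). ATP5F1C, the gamma subunit of the rotor shaft, instead fell at both later days, by 0.26 at day 2 and 0.18 at day 5.

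ATP5F1E, the epsilon subunit at the foot of that shaft, had 154 and 156 CPM (day 0), 201 and 199 CPM (day 2) and 119 and 119 CPM (day 5). Its days did not overlap: day 2 was highest and day 5 lowest. The log2 fold change was 0.37 ± 0.031 (SE, adjusted p = 1.5e-08) at day 2 against day 0, -0.38 ± 0.034 (SE, adjusted p = 2.6e-08) at day 5 against day 0 and -0.75 ± 0.034 (SE, adjusted p = 2.5e-12) at day 5 against day 2. ATP5IF1, the inhibitor that blocks ATP hydrolysis by the enzyme (ENSG00000130770, chr1:28236109-28246906, plus strand), had 125 and 128 CPM (day 0), 111 and 111 CPM (day 2) and 67.9 and 66.7 CPM (day 5). Its day 5 fall relative to day 0 was the largest among the 80 tested members, -0.91 ± 0.041 (SE, adjusted p = 2.0e-12) on the log2 scale (a change of -46.8%), and at day 2 it had fallen by 0.19. ATP5MD, a small membrane subunit linked to dimers of the enzyme, had a day 5 log2 fold change of -0.71 ± 0.064 (SE, adjusted p = 2.9e-08) against day 0. Of the 4 stalk subunits ATP5PB and ATP5PD also fell at day 5, by 0.42 and 0.39 on the log2 scale against day 0, ATP5PF was not called (-0.049), and ATP5PO was called higher by 0.16 but turned to -0.044 under library totals.

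Subunit c of the membrane rotor is encoded by ATP5MC1, ATP5MC2 and ATP5MC3, which give the same mature protein behind different import sequences, and the 3 genes moved in opposite directions. ATP5MC2 had 92.5 and 93.6 CPM (day 0), 144 and 143 CPM (day 2) and 100.1 and 108 CPM (day 5). ATP5MC3 had 123 and 121 CPM (day 0), 96.1 and 95.6 CPM (day 2) and 145 and 146 CPM (day 5). Day 2 was the highest day for ATP5MC2 and the lowest for ATP5MC3, with no overlap between day 2 and the other days. At day 2 against day 0 the log2 fold change was 0.63 ± 0.04 (SE, adjusted p = 3.1e-10) for ATP5MC2, -0.35 ± 0.036 (SE, adjusted p = 2.0e-07) for ATP5MC3 and -0.34 ± 0.072 (SE, adjusted p = 5.1e-04) for ATP5MC1, whose printed promoter holds the cyclic AMP response element. ATP5MC2 thus made up 55.0% and 54.6% of the counts of the 3 genes at day 2, against 37.7% and 38.6% at day 0, and 36.0% and 37.6% at day 5. Shares among the 3 genes do not depend on the scaling of a library. At day 5 against day 0 ATP5MC1 and ATP5MC2 were called higher by 0.19 and 0.16, but turned to -0.015 and -0.047 under library totals; without day 5 replicate 2 the ATP5MC2 call was lost (adjusted p = 0.084), and without day 0 replicate 2 the ATP5MC1 call was lost (0.19), as it was without day 5 replicate 1 (0.12) or replicate 2 (0.066).

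**Figure D3:**
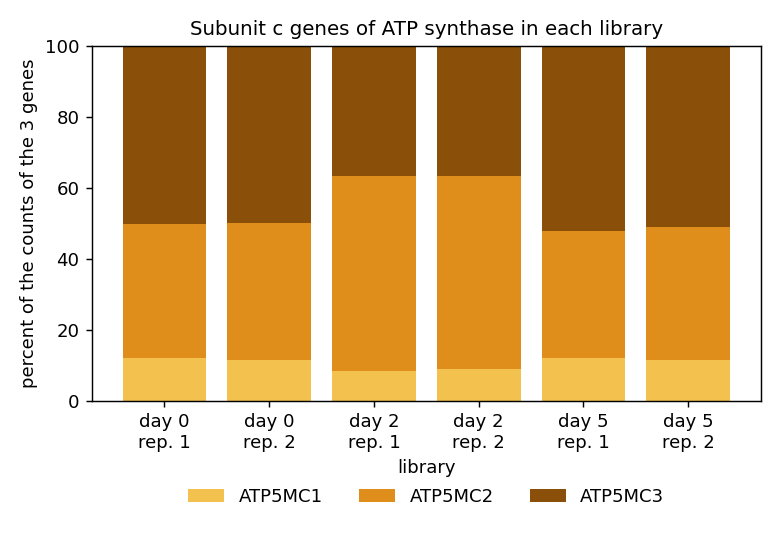
Percent of the summed counts of the 3 subunit c genes (vertical axis) held by ATP5MC1, ATP5MC2 and ATP5MC3 in each of the 6 libraries (horizontal axis). ATP5MC2 takes 55.0% and 54.6% at day 2, and between 36.0% and 38.6% in the libraries of the other days.

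The mRNAs of subunits encoded in mitochondrial DNA were mostly lower at day 2 and higher at day 5. Of these 13 mRNAs 1 was higher and 10 lower at day 2 relative to day 0 (median log2 fold change -0.43). Under library totals the counts were 0 and 13. Among all tested genes the shares called were 33.4% and 33.4% (median 0.0030), and 26% and 42.3% under library totals. Day 5 had 13 higher and 0 lower than day 0 (median 0.54), and 11 and 0 under library totals. The shares of all tested genes were 35.8% and 34.1% (median 0.045), and 27% and 42.3% under library totals. Relative to day 2, 13 were higher and 0 lower at day 5 (median 0.88), beside 32.1% and 33.7% of all tested genes. Their summed share of a library was 2.81% and 2.74% at day 2 and 4.74% and 4.61% at day 5, against 3.64% and 3.56% at day 0. The 86 nuclear members together held 0.753% and 0.752% (day 2) and 0.726% and 0.722% (day 5), against 0.805% and 0.812% (day 0), lower at both later days. On the TMM scale their sum was instead higher at both, at 7819 and 7809 CPM (day 2) and 7655 and 7607 CPM (day 5), against 7331 and 7443 CPM (day 0). In complex IV, where 11 of 13 tested nuclear subunits were higher at day 2, the core subunits MT-CO2 and MT-CO3 had log2 fold changes of -0.64 ± 0.013 (SE, adjusted p = 8.8e-17) and -0.22 ± 0.016 (SE, adjusted p = 1.4e-09). MT-CO1, the catalytic core, had one of 0.063 ± 0.014 (SE, adjusted p = 0.0011) that turned to -0.12 under library totals. In complex I at day 5, 7 of 7 mitochondrial mRNAs were higher than at day 0. Of its 37 nuclear subunits 11 were higher and 17 lower, beside 35.8% and 34.1% of all tested genes. The difference between the mitochondrial and the nuclear set was not itself tested. MT-ND2, a membrane-arm subunit, had 1177 and 1151 CPM (day 0), 743 and 725 CPM (day 2) and 2118 and 2069 CPM (day 5), highest at day 5 and lowest at day 2 without overlap.

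**Figure D4:**
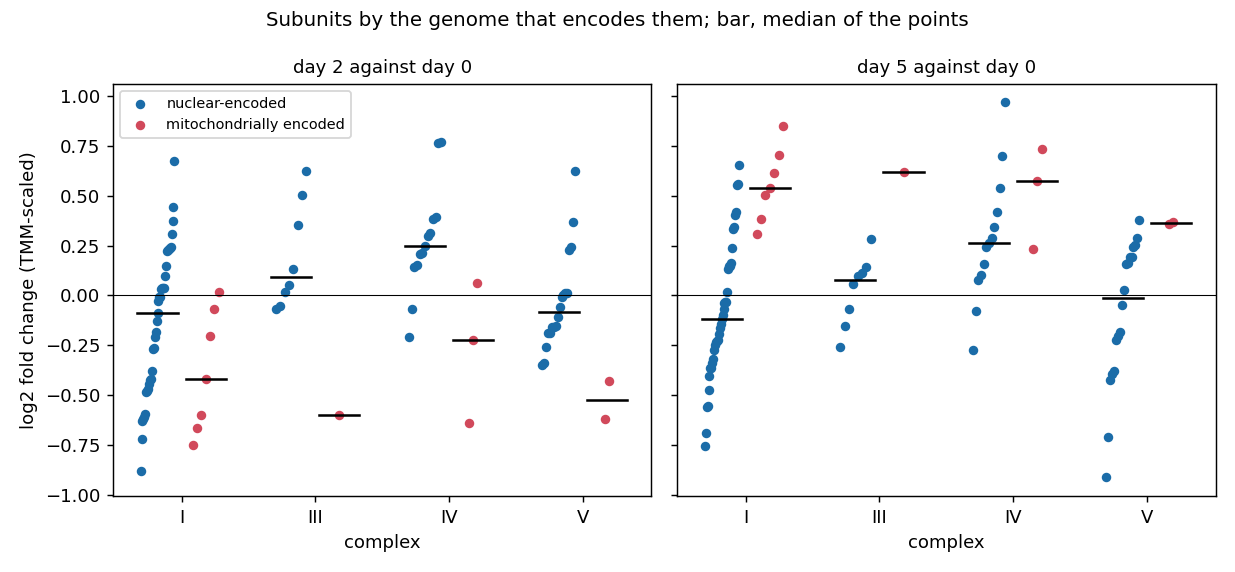
Log2 fold change (vertical axis, TMM-scaled) of nuclear-encoded and mitochondrially encoded subunits of complexes I, III, IV and V (horizontal axis) at day 2 and day 5 against day 0; points are genes and bars medians. Mitochondrial mRNAs lie mostly below 0 at day 2 and all above 0 at day 5, while nuclear subunits spread around 0.

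Genes that build and supply the chain were counted from lists. Among all tested genes 33.4% were higher and 33.4% lower at day 2, and 35.8% and 34.1% at day 5, both against day 0. Under library totals those shares were 26% and 42.3%, and 27% and 42.3%. Of 78 mitochondrial ribosomal protein genes, whose products translate the mitochondrial mRNAs, 11 were higher and 46 lower at day 2 against day 0 (median log2 fold change -0.28) and 10 and 37 at day 5 (median -0.20). Library totals gave 2 and 60 of these 78 at day 2 and 5 and 57 at day 5. Import and cristae genes gave 4 higher and 11 lower of 18 at day 2 (3 and 14 under library totals) and 4 and 13 at day 5 (2 and 14). Among assembly factors at day 2, 2 of 16 were higher and 7 lower for complex I (1 and 12 under library totals). For complex II 2 of 4 were higher and 1 lower (1 and 1). Complex III assembly factors gave 0 higher and 4 lower of 6 (0 and 6), and those of complex IV 6 and 8 of 22 (3 and 9). Those of complex V gave 0 and 0 of 4 (0 and 2 under library totals). At day 5 against day 0, assembly factors of complex I gave 4 higher and 8 lower (3 and 10 under library totals). Those of complex II gave 3 and 1 (3 and 1), and those of complex III 2 and 2 (2 and 3). Factors of complex IV gave 4 and 9 (3 and 11), and those of complex V 1 and 1 (1 and 2). BCS1L, which inserts the Rieske protein into complex III, had 18.4 and 17.5 CPM (day 0), 10.0 and 7.92 CPM (day 2) and 18.5 and 17.7 CPM (day 5), lowest at day 2 while the core subunits UQCRC1 and UQCRC2 were highest there. The tricarboxylic acid cycle enzymes, which feed the chain with NADH and succinate, gave 6 higher and 4 lower of 14 at day 2 (5 and 8 under library totals) and 5 and 6 at day 5 (3 and 10 under library totals). Of 10 electron carriers and subunits outside the name rule 5 were higher and 4 lower at day 2 (3 and 4 under library totals), and 3 and 5 at day 5 (3 and 6). CYCS, cytochrome c, had 57.0 and 57.6 CPM (day 0), 43.7 and 41.3 CPM (day 2) and 90.2 and 92.4 CPM (day 5), lowest at day 2 and highest at day 5. ETFA, which passes electrons from fatty acid oxidation to ubiquinone, had 119 and 121 CPM (day 0), 144 and 147 CPM (day 2) and 45.7 and 48.9 CPM (day 5), lowest at day 5.

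Among regulators of mitochondrial gene expression 1 gene changed far more than any subunit. PPARGC1A, the coactivator PGC-1α known to respond to cyclic AMP, had 1.54 and 1.13 CPM (day 0), 1.29 and 1.19 CPM (day 2) and 44.0 and 45.2 CPM (day 5). The day 5 libraries stood apart from the other 4, with a log2 fold change of 5.07 ± 0.14 (SE, adjusted p = 1.7e-15) against day 0 and 5.17 ± 0.14 (SE, adjusted p = 2.8e-15) against day 2, while day 2 was not called against day 0. Of the 15 regulators 3 were higher and 4 lower at day 2 (3 and 7 under library totals) and 6 higher and 2 lower at day 5 (4 and 3 under library totals), both against day 0. Among all tested genes 33.4% were higher and 33.4% lower at day 2, and 35.8% and 34.1% at day 5. GABPA, an ETS-family activator of respiratory genes, was higher at both, by 1.20 and 1.02 on the log2 scale, and TFAM, which packages and transcribes mitochondrial DNA, by 0.63 ± 0.12 (SE, adjusted p = 1.3e-04) at day 5. TFB1M, a mitochondrial ribosomal RNA methyltransferase, had 19.7 and 19.4 CPM (day 0), 42.4 and 44.4 CPM (day 2) and 10.9 and 9.71 CPM (day 5), highest at day 2 and lowest at day 5. Between day 5 and day 0 the 80 tested nuclear subunits had a median log2 fold change of -0.032, beside 0.045 for all tested genes.

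**Figure D5:**
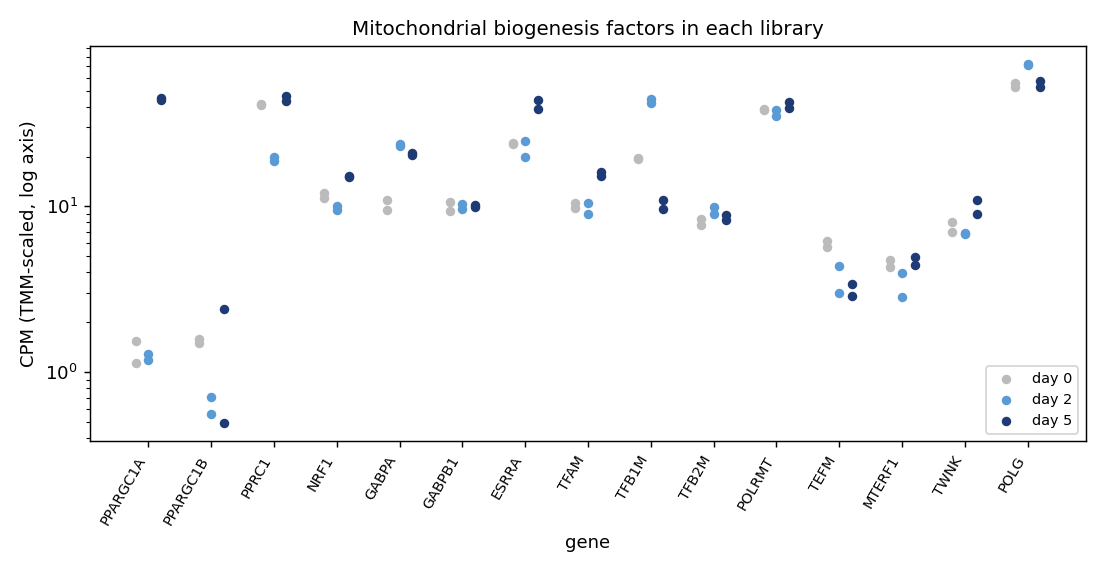
TMM-scaled CPM (vertical log axis) of 15 regulators of mitochondrial gene expression in each library at days 0, 2 and 5. PPARGC1A is at 44.0 and 45.2 CPM at day 5, against 1.13 to 1.54 CPM in the other 4 libraries, and PPARGC1B, at most 2.40 CPM, differs widely between the day 5 libraries.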

How the data were processed

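Expected counts per gene were deposited by the authors for 6 libraries in 1 table, together with 4 columns of values not used here. Per the submitters' processing notes the build was GRCh38. Which aligner, strand setting and annotation were used is not given in the sources used here. Expected counts were rounded; rows with no gene name (0.0356% to 0.0475% of counts) were left out. Genes passing filterByExpr (count minimum 10, total 15) were fitted over all 6 libraries with TMM factors in edgeR 4.0.16 (R 4.3.3), leaving 3 residual degrees of freedom, with Benjamini-Hochberg adjustment over 16327 genes. The procedure was tested on simulated data. Coordinates are from GENCODE release 29 (GRCh38), promoters from RefSeq (GRCh38.p14). The motif of nuclear respiratory factor 1 was shortened to its core of 9 letters after matches of a form of 10 letters had been seen. Alternatives were RLE size factors, library totals, other filters, a fit to the groups compared, limma-voom (limma 3.58.1), DESeq2 1.42.0, glmTreat at 1.5-fold, a replicate block and single libraries left out. Named genes are catalytic subunits, isoform families and, per comparison and complex, up to 2 called members with the largest rise and fall; other genes were named after their values were seen. Values of 1 member are not reported here. The members and lists were chosen with earlier results of these data known. Same-numbered libraries did not deviate together (correlations 0.003, -0.002 and -0.005). Counting error at the depth of each library allows 0.103 to 0.180 CPM for a count of 0 (3 counts).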

Additional observations from a re-analysis of the deposited data

How the results depend on the processing

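Counts of members called in each direction (day 2 against day 0, day 5 against day 0, day 5 against day 2) stayed within 1.5 times under RLE size factors, other filters, a fit to the groups compared, limma-voom, DESeq2 and the replicate block. Library totals gave 17 higher and 44 lower at day 2 and 13 higher at day 5, both against day 0, and a test beyond 1.5-fold gave 3 and 2, 1 and 3, and 0 and 5. Without single libraries the counts ranged from 29 to 33 higher and 24 to 29 lower, 24 to 29 and 26 to 34, and 23 to 27 and 27 to 32. The replicate block gave 32 and 29, 31 and 33, and 28 and 34; the labels do not tie the numbers to a shared culture and the pairing check did not support one. Among named genes the block gained 1 call and lost none.

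Medians of complexes relative to day 0 moved most with the scaling, those at day 5 against day 2 with filters or single libraries. Against day 0 at day 2, library totals gave -0.27 for complex I, 0.10 for II, -0.094 for III, 0.062 for IV and -0.27 for V; at day 5 -0.32, -0.33, -0.13, 0.058 and -0.22; and -0.23 for complex III at day 5 against day 2. RLE size factors gave -0.10 for complex I and 0.074 for III at day 2, and 0.043 for III and -0.044 for V at day 5. No count filter gave 0.12 for complex III and -0.12 for V at day 2, 0.047 and -0.098 at day 5, and -0.24 for III and -0.11 for IV at day 5 against day 2. The stricter filter gave 0.098 for complex III and 0.010 for V at day 5, and -0.18 and -0.023 at day 5 against day 2; the fit to the groups compared gave 0.057 and -0.031 at day 5. Without single libraries the medians ranged at day 2 from -0.14 to -0.060 for complex I, 0.065 to 0.11 for III and -0.10 to -0.048 for V, at day 5 from 0.041 to 0.097 for III and -0.061 to 0.027 for V, and at day 5 against day 2 from -0.21 to -0.18 for III and -0.11 to -0.00739 for V. The complex V median at day 5 is close to 0: it was 0.0099 without day 0 replicate 1 and 0.027 without day 5 replicate 2, against -0.012.

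Among genes named by the rule, library totals turned the sign of 12 values that were called under at least 1 of the 2 scalings: at day 2 against day 0 COX5A (-0.034), COX5B (-0.043), NDUFA4 (-0.15), NDUFS1 (-0.15) and UQCR11 (-0.13), and at day 5 against day 0 ATP5MC1 (-0.015), ATP5MC2 (-0.047), COX7A2L (-0.13), NDUFS1 (-0.19), UQCRC2 (-0.065), UQCRFS1 (-0.093) and NDUFA8 (-0.060). Values called under neither also turned, for NDUFA7 and NDUFB1 at day 2 and COX5A and COX7A1 at day 5. Of other members named in the text ATP5PD, ATP5PO and UQCRH turned at day 2, and ATP5ME, ATP5PO, NDUFA10 and UQCRH at day 5. The cause was not tested beyond the shift in scale. Depth limits members under 1 CPM, and 2 libraries a day limit small changes.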
